A study of Mus musculus with 32 samples.

Results

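The comparison set progenitors from mouse fetal liver against progenitors from adult mouse bone marrow, in the untreated control animals of a study on the dose of the splicing factor U2af1. The 8 libraries were chosen by their labels, as every untreated fetal library with a floxed U2af1 allele or Vav1-Cre alone and every untreated adult wild-type library, out of 32 libraries in the whole series. Gene expression was measured by RNA sequencing of cells sorted as Lin- cKit+ Sca1-, a gate for committed myeloid and erythroid progenitors. Libraries were made from total RNA after removal of ribosomal RNA, so unspliced and non-coding transcripts were read as well.

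The fetal arm held 5 libraries from E14.5 livers. The flox control, with genotype U2af1(flox/flox) and no Cre given in the labels, had 3 libraries, and animals labelled Vav1-Cre, a recombinase driven in blood cells, had 2. The labels placed the 3 flox controls and 1 Vav1-Cre library in batch A and the other Vav1-Cre library in batch B. The adult arm held 3 libraries from mice that carried Mx1-Cre, an interferon-inducible Cre, with rTA and tgU2AF1(WT), a doxycycline-dependent U2AF1 transgene, and were U2af1(wt/wt) at the gene itself. These mice received neither doxycycline nor polyinosinic-polycytidylic acid (pIpC). No batch was given for the adult libraries. Stage, tissue, genotype background and library batch therefore differed together between the arms and cannot be told apart, and U2af1 itself was not analysed here. The labels do not say whether the libraries of a group came from separate animals, so p-values measure the spread between these libraries, which may be partly technical.

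The fetal liver is the main site of blood formation in the mouse before birth, and its progenitors divide fast and feed mainly the red cell lineage, whereas adult marrow progenitors make many more granulocytes. Fetal blood cells carry a programme held by the RNA-binding proteins Lin28a and Lin28b, which block maturation of the let-7 microRNAs and so spare let-7 target mRNAs such as those of the Igf2bp and Hmga families. Around birth this programme fades, imprinted growth genes are shut off in most tissues, and red cells change the globin genes they use.

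The let-7 family shares 1 seed, bases 2 to 8, shown in capitals in the mature sequences below because all family members pair with targets through it (RefSeq annotation on GRCm38.p6, with the locus of 1 copy of each):

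mmu-let-7a-5p (chr13:48538239-48538260, minus strand): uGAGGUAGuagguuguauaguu

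mmu-let-7b-5p (chr15:85707325-85707346, plus strand): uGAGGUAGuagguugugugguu

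mmu-let-7g-5p (chr9:106178846-106178867, plus strand): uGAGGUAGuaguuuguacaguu

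mmu-miR-98-5p (chrX:151913229-151913250, plus strand): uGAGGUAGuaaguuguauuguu

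The match to this seed in a target mRNA is CTACCTC. Every tested gene of the Lin28b-let-7 list held at least 1 match in the 3′ untranslated region (UTR) of its longest-UTR transcript in GENCODE M21, and the first of each is printed with the match in capitals:

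Igf2bp1: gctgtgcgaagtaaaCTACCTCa

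Igf2bp3: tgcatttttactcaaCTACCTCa

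Igf2bp2: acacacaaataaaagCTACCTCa

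Hmga1: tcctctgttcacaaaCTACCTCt

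Arid3a: aaggcaagtttctttCTACCTCa

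Trim71: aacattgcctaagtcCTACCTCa

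Igf2bp1 and Trim71 held 4 matches each, Arid3a held 2, and Igf2bp2, Igf2bp3 and Hmga1 held 1 each. Of the 10798 tested genes with a UTR of this kind, 12.1% held at least 1 match and 1.57% held 2 or more. In the test described below, at least 1 match was in 13.6% of genes called higher in fetal liver and 12.5% of genes called lower. For genes not called the share was 10.5%. The list was made of genes known from the literature as let-7 targets or partners, so the matches describe the list and were not tested. Mature let-7 levels were not analysed here.

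Library totals ran from 28886512 counts in the batch B library to 66089097 in the fetal arm and from 50153559 to 58256477 in the adult arm. Levels below are in CPM, counts scaled to a common library size by edgeR's trimmed mean of M values. No pair of replicates was alike within counting error. Over the 1000 genes of largest variance, a first component with 87.1% of it placed the fetal libraries between 24.7 and 59.8 and the adult libraries between -79.0 and -74.8. The batch B fetal library lay nearest to the adult libraries on it. Kit, the receptor the cells were sorted on, lay at 471, 556 and 560.3 CPM in the 3 flox controls, 538 and 514 CPM in the Vav1-Cre libraries of batches A and B, and 599.9, 609.7 and 482 CPM in the adult libraries. Its difference of -0.09 (standard error, SE, 0.09) on the log2 scale did not pass edgeR's quasi-likelihood test (adjusted p = 0.409). Adjusted p-values here and below are by Benjamini-Hochberg over all tested genes of that fit. Lineage markers that the sort should remove were low but not absent, with Ly6g, a neutrophil marker, at 0.317 to 4.34 CPM in adult and 0 to 0.198 CPM in fetal libraries. In such bulk samples, fewer cells of a type and less RNA per cell cannot be told apart.

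Fetal liver and adult marrow progenitors differed in most of the genes tested. Of 12626 genes that passed the filter on low counts, 7236 (57.3%) differed at a Benjamini-Hochberg adjusted p under 0.05 in edgeR's quasi-likelihood test, 3820 (30.3%) higher and 3416 (27.1%) lower in fetal liver. A difference of at least 2-fold was found for 2965 (23.5%), of which 1710 were higher and 1255 lower. The normalised CPM of the 5 fetal and 3 adult libraries did not overlap for 6694 genes (53.0%), with the fetal libraries above in 3528 (27.9%) and below in 3166 (25.1%). The median log2 fold change (fetal over adult) of all tested genes was 0.02. Any gene list has to be read against these shares.

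**Figure D1:**
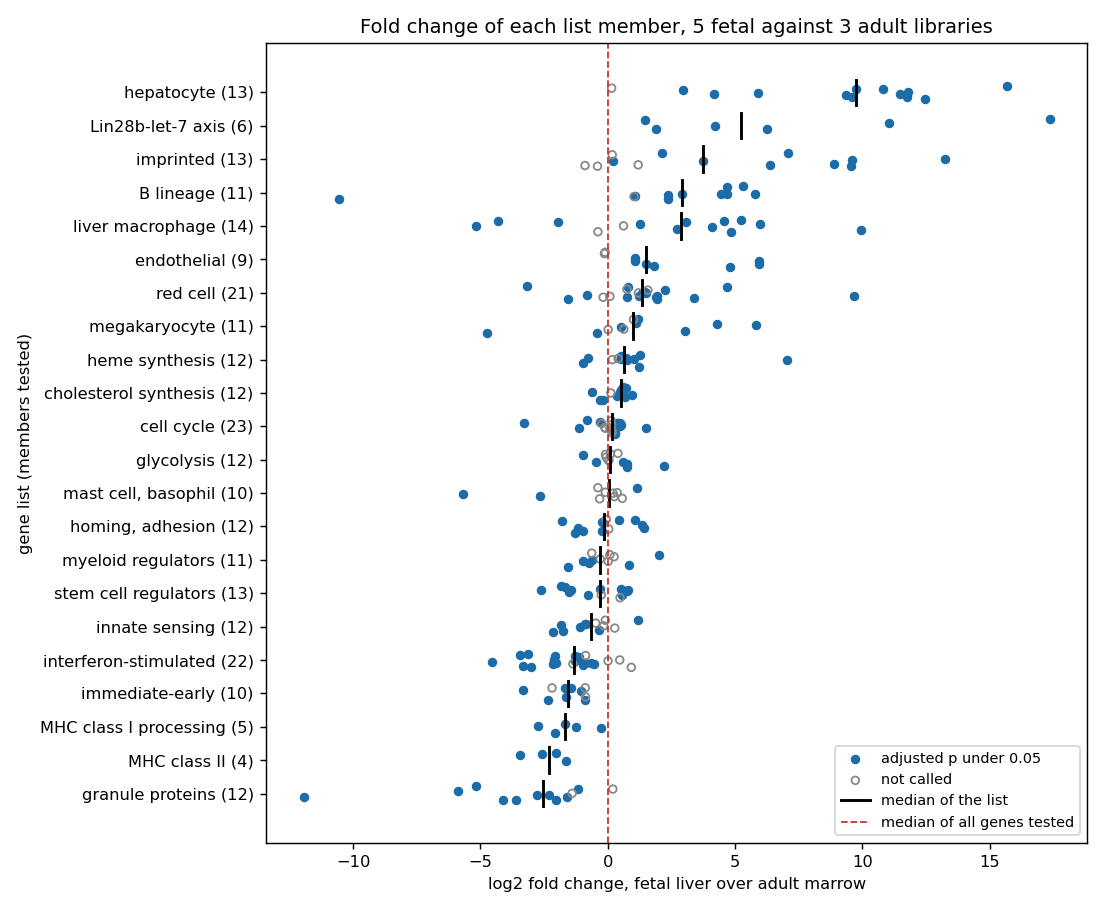
Each point is 1 gene of a list, placed by its log2 fold change of 5 fetal over 3 adult libraries; lists are sorted by their median (black bar), filled points passed an adjusted p under 0.05, and the dashed line is the median of all 12626 genes. Of the 22 lists drawn, hepatocyte and Lin28b-let-7 genes have the highest medians, 9.75 and 5.24, and granule protein genes the lowest, -2.54; values of genes with no adult counts depend on the fit and are shown as fitted.

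All tested genes of the Lin28b-let-7 axis were higher in fetal liver, and the Igf2bp genes by margins far above the spread between libraries. The 3 Igf2bp genes encode RNA-binding proteins that hold and stabilise growth-related mRNAs. Igf2bp1 (chr11:95957163-96005940, GRCm38, minus strand) stood at 334, 454 and 450.4 CPM in the flox controls, 468 CPM in the batch A Vav1-Cre library and 389 CPM in the batch B library, with no count in any adult library. All 5 fetal libraries were thus within a narrow band while the gene was not detected in adult marrow, at least 7188-fold lower against a floor of 3 counts per library (adjusted p = 8.33e-08, edgeR). Igf2bp3 (chr6:49085223-49214957, minus strand) stood at 272, 244 and 242 CPM in the flox controls, 241 and 248 CPM in the Vav1-Cre libraries and 0.124, 0.125 and 0.09902 CPM in adults. The mean of 249.7 ± 12.9 CPM (SD, n = 5) was 2153 times that of adults, the smallest adjusted p of all genes (edgeR, 3.20e-11). Igf2bp2 (chr16:22059009-22163299, minus strand) was expressed in both arms, at 109, 118 and 116 CPM in flox controls, 133 and 120.1 CPM in the Vav1-Cre libraries and 6.18, 7.51 and 5.53 CPM in adults. Igf2bp1 overlaps other annotated genes on both strands and Igf2bp3 on the other strand, and reads of such genes cannot be told apart where strand was not used. For Igf2bp2, which overlaps none, the ratio was 18.6 (log2 difference 4.22, SE 0.12, adjusted p = 3.58e-08 in edgeR), again without overlap.

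Hmga1, a chromatin architecture protein of growing cells, had a fetal mean of 1028 ± 140.4 CPM (SD, n = 5) and an adult mean of 275 ± 20.2 CPM (SD, n = 3). Arid3a, a DNA-binding protein of fetal B and erythroid cells, had means of 469 ± 49.4 and 169.9 ± 26.2 CPM. Their ratios of 3.74 and 2.76 were far smaller than those of the Igf2bp genes, and neither gene overlapped between arms. Trim71, an embryonic RNA-binding protein, was low throughout, at 0.444 to 3.59 CPM in fetal libraries and 0 to 0.0396 CPM in adults. Over summed counts of 412 against 3, its ratio was 84.6 with an exact 95% counting interval of 28.8 to 412. In all, 6 of the 6 tested members were called higher and none lower, with a median log2 fold change of 5.24, or 4.52 with the genes under the floor set to it, beside 0.02 over all genes. Members at or near 0 in adults passed the filter on low counts through the fetal arm alone, here and in the lists below. Genes at or near 0 in fetal libraries, such as Dntt and Orm1 below, passed it through the adult arm alone. All 6 were called higher with the 4 batch A libraries alone, and all 6 with the batch B library alone. Lin28a, Lin28b and Hmga2 were not analysed here, and Dppa4 had at most 3 counts in any of the 8 libraries.

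**Figure D2:**
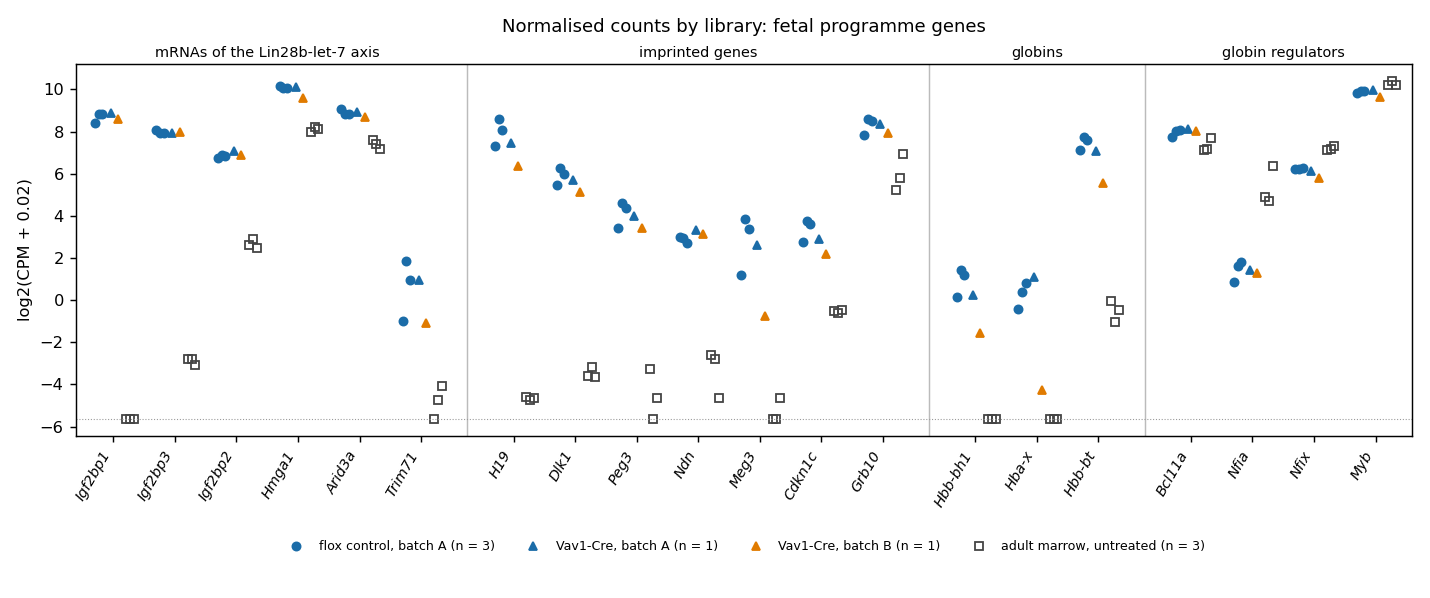
Each point is 1 library, placed by log2(CPM + 0.02) on the vertical axis; blue circles are flox controls, blue and orange triangles the Vav1-Cre libraries of batches A and B, open squares the adult libraries, and the dotted line marks 0 counts. Igf2bp1 lies at 334 to 468 CPM in fetal liver and on the dotted line in adults, and the batch B library is the lowest fetal point for H19, Dlk1 and all 3 globins.

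Imprinted genes formed the next group, with 9 of 13 tested members higher and none lower. H19 (chr7:142575529-142578143, minus strand), a non-coding RNA from the maternal chromosome, stood at 161, 381 and 273 CPM in flox controls, 175 and 83.6 CPM in the Vav1-Cre libraries of batches A and B, and 0.0207, 0.0178 and 0.0198 CPM in adults. The ratio of 11300 between summed counts of 54944 and 3 had an exact 95% counting interval of 3860 to 54700. Dlk1, a paternally expressed membrane protein that restrains differentiation, stood at 44.8, 77.5 and 64.1, 51.6 and 35.4 CPM in fetal liver and at 0.06201, 0.0891 and 0.0594 CPM in adults (779 times, adjusted p = 4.04e-07 in edgeR). For both genes flox control replicate 4 was highest and the batch B library lowest, and no fetal library came near the adult values. Peg3 lay at 10.6 to 23.96 CPM against 0 to 0.0827 CPM, and Ndn, a growth suppressor, at 6.49 to 10.1 CPM against 0.0198 to 0.145 CPM. Cdkn1c, the cell cycle inhibitor p57, lay at 4.57 to 13.5 CPM against 0.642 to 0.693 CPM, and Grb10, an adaptor that limits insulin and IGF signalling, at 227 to 388 CPM against 36.98 to 121 CPM.

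Meg3, the non-coding RNA next to Dlk1, lay at 0.571 to 14.6 CPM in fetal libraries against a single adult count in all (ratio 1070, exact 95% counting interval 192 to 42400). Zim1 was at 0.0615 to 1.05 CPM in fetal libraries and at 0 in adults, a difference of at least 5.67-fold, or at least 2.60-fold without flox control replicate 4. Gnas was called with a log2 difference of only 0.19. Igf2r (log2 difference -0.40, adjusted p = 0.368), Phlda2 (-0.89, adjusted p = 0.31), Plagl1 (1.20, adjusted p = 0.125) and Impact (0.18, adjusted p = 0.396) did not pass the edgeR test. In the batch B library alone Igf2r was called lower (-1.73, adjusted p = 0.0188 in edgeR). The list's median log2 difference was 3.73, or 2.50 with the genes under the floor set to it. Igf2 and Mest were not analysed here. H19, Dlk1, Meg3, Peg3 and Cdkn1c followed the same order over fetal libraries as the hepatocyte markers described next, as did Trim71 of the Lin28b-let-7 list. Grb10 and Zim1 departed from it only in the order of flox control replicate 3 and the batch B library. Ndn and the 3 Igf2bp genes did not follow it. The part that other liver cells play in these genes was not tested.

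Markers of other liver cells differed sharply between arms and among the fetal libraries. Albumin mRNA (Alb), the main product of hepatocytes, stood at 44.04, 323 and 207 CPM in flox controls 3, 4 and 5, 69.3 CPM in the batch A Vav1-Cre library and 9.51 CPM in the batch B library, and had no count in adults. Flox controls 4 and 5 therefore carried far more than the other 3 fetal libraries, and the batch B library the least. Of 13 tested hepatocyte genes, 12 were called higher and none lower (median log2 fold change 9.75, or 6.91 with genes under the floor set to it). Apoa1 lay at 1.395 to 55.4 CPM, Ttr at 0.476 to 21.1 CPM and Fgb at 0.349 to 18.9 CPM in fetal libraries, in the same order as Alb. In adults, Ttr and Fgb were at 0 and Apoa1 at 0.0178 to 0.0413 CPM. Hnf4a, the hepatocyte transcription factor, was 7.78 times higher, and Trf, transferrin, did not pass the test (log2 difference 0.15, adjusted p = 0.736 in edgeR). The mean log2 CPM over the list, called the hepatocyte score below, ran from 0.21 to 4.84 in fetal and from -3.26 to -2.71 in adult libraries. In the batch B library alone, 5 of the 13 were called.

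With the hepatocyte score as a covariate the number of genes called fell from 7236 to 1626 (12.9% of genes, 7.19% higher and 5.69% lower). The score does not overlap between the arms, so this model also takes up the arm difference itself. Under it the Lin28b-let-7 list gave 5 higher and 0 lower, B-lineage genes 7 and 0, class I processing genes 0 and 4, imprinted genes 5 and 1, interferon-stimulated genes 1 and 5, granule genes 0 and 4 and class II genes 0 and 0. Without flox controls 4 and 5, the libraries of highest score, 5324 genes were called (43.9%, 2792 higher and 2532 lower), and these lists gave 6 and 0, 10 and 1, 0 and 4, 7 and 0, 1 and 15, 0 and 9, and 0 and 4, in that order.

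Macrophage genes split in 2 directions, with 9 of 14 higher and 3 lower. Marco, a scavenger receptor, lay at 5.91 to 12.5 CPM in batch A libraries, 1.81 CPM in batch B and 0 to 0.0198 CPM in adults. C1qb, a complement component, lay at 9.84 to 11.7 CPM in batch A, 1.65 CPM in batch B and 0.0827 to 0.495 CPM in adults, and Cd5l at 9.41 to 11.995, 1.08 and 0.0413 to 0.198 CPM. For these 3 genes the batch B library sat between the other fetal libraries and the adult ones. Vcam1, an adhesion molecule of marrow and erythroblastic island macrophages, went the other way, at 9.23 to 25.7 CPM in fetal libraries and 331 to 436 CPM in adults (19.8 times lower, adjusted p = 3.32e-06 in edgeR). Slc40a1, the iron exporter ferroportin, was 3.92 times lower and Cd163, a haemoglobin receptor, 40.2 times lower.

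Of 9 endothelial genes, 7 were higher and none lower, led by Stab2 of sinusoidal vessels at 0.951 to 12.4 CPM against 0.0396 to 0.178 CPM and Cdh5 at 1.43 to 11.6 CPM against 0.0207 to 0.1604 CPM. Pecam1 and Tie1 did not pass the test (log2 differences -0.13 and -0.10). Of 5 stromal genes, 4 were higher and none lower. Col1a1 was among them at 0.1902 to 3.58 CPM against 0.446 to 0.496 CPM, although the batch B library lay below all adults. The call of Col1a1 was lost when any of 6 libraries was left out (all but flox control replicate 3 and the batch B library). How many sorted cells of each type these levels stand for was not tested.

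**Figure D3:**
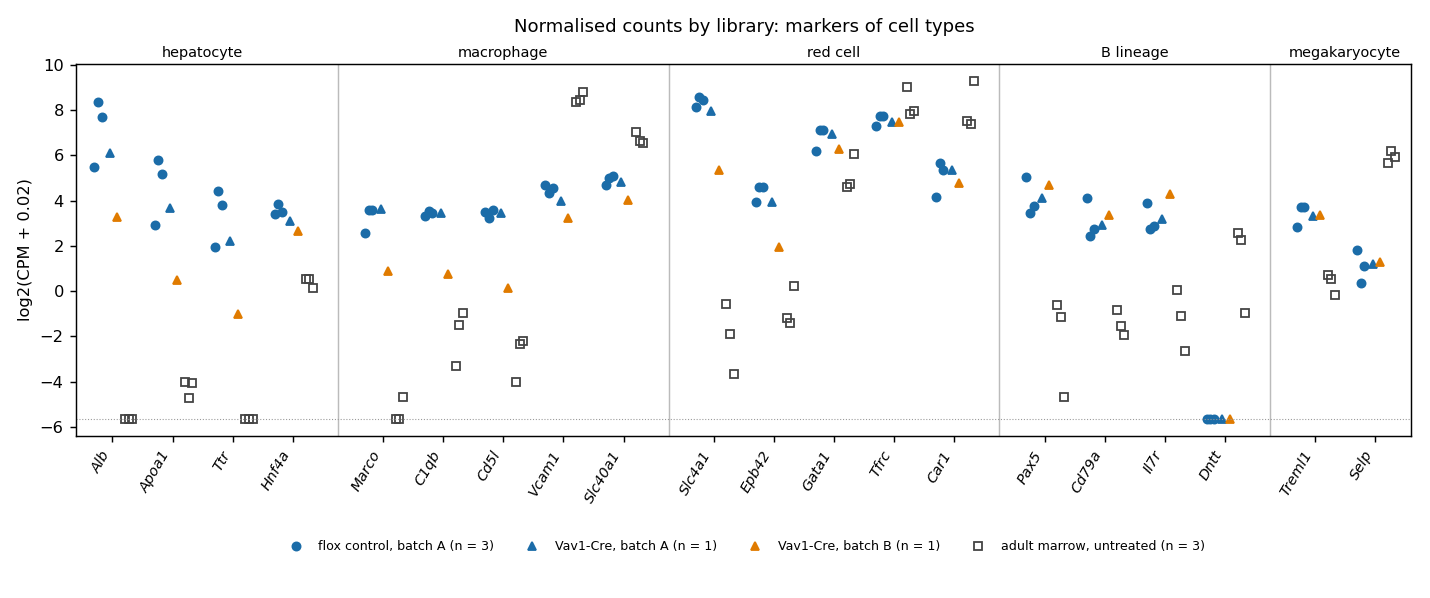
Each point is 1 library, placed by log2(CPM + 0.02); symbols are blue for batch A, orange for batch B and open squares for adult marrow, and the dotted line marks 0 counts. Alb runs from 9.51 to 323 CPM over fetal libraries, the batch B triangle lies below the batch A points for Alb, Marco, C1qb, Cd5l and Slc4a1, and Vcam1, Slc40a1, Car1, Dntt and Selp lie higher in adults.

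Red cell genes were higher in fetal liver in 13 of 21 tested members and lower in 3, and the level of several differed widely among the libraries of both arms. Slc4a1, the band 3 anion exchanger of the red cell membrane, stood at 279.5, 380.1 and 347 CPM in flox controls, 244 and 40.6 CPM in the Vav1-Cre libraries of batches A and B, and 0.661, 0.2496 and 0.0594 CPM in adults. The mean ratio was 799, or 1672 without adult replicate 1 (adjusted p = 4.52e-05 in edgeR), although the batch B library held far less than the others. Alas2, the red cell enzyme that starts heme synthesis, followed with 25.9 to 39.4 CPM in batch A, 5.83 CPM in batch B and 0.0713 to 0.317 CPM in adults. Its housekeeping counterpart Alas1 was lower, at 295 to 585 CPM against 663 to 978 CPM (log2 difference -0.98, adjusted p = 0.00241 in edgeR). Epb42 and Sptb, which link and form the membrane skeleton, were 25.6 and 10.5 times higher, or 43.0 and 24.0 times without adult replicate 3. Gata1, the master regulator of the lineage, was 2.86 times higher (4.37 times without adult replicate 3), at 73.5 to 139.7 CPM against 24.2 to 65.4 CPM.

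The lower members were Car1, an abundant carbonic anhydrase of erythroid progenitors, at 17.96 to 50.3 CPM against 166 to 621 CPM, Aqp1, a water channel, and Tfrc, the transferrin receptor. Car1 was 9.11 times lower, or 4.93 times without adult replicate 3 (adjusted p = 0.000331 in edgeR), Aqp1 2.92 times and Tfrc 1.77 times. The median log2 difference of the 21 erythroid genes was 1.36, and 8 of 12 heme genes were higher and 2 lower (median 0.62). Adult replicate 3 lay above the other 2 adult libraries for Gata1, Sptb, Epb42, Car1 and Car2. The counts moved with the libraries used. In batch A alone 14 erythroid genes were higher and 3 lower, and in the batch B library alone 2 were higher and 2 lower. The heme genes gave 9 higher and 2 lower in batch A alone and 1 higher and 2 lower in the batch B library alone. Leaving out adult replicate 1 or adult replicate 2 gave 7 higher and 3 lower for the erythroid and 4 higher and 2 lower for the heme genes, and leaving out flox control 4, flox control 5 or the batch A Vav1-Cre library gave 5 higher heme genes. Flox controls 4 and 5, with the most hepatocyte mRNA, were also highest for Slc4a1 and Gata1. With the hepatocyte score in the model 1 erythroid gene was called in each direction and 1 heme gene was higher and 2 lower, and the part of other cells in these values was not tested.

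Both embryonic globin genes that were measured had counts in fetal libraries and none in adults. Hbb-bh1 lay at 0.317 to 2.68 CPM and Hba-x at 0.0317 to 2.08 CPM, a difference of at least 25.8-fold and 20.1-fold. The batch B library was lowest for both, with Hba-x at 0.0317 CPM. Hbb-bt, an adult beta globin, stood at 139, 211 and 193 CPM in flox controls, 134 and 46.5 CPM in the Vav1-Cre libraries and 0.951, 0.464 and 0.713 CPM in adults, 204 times higher in fetal liver (adjusted p = 1.08e-05 in edgeR). Near-identical globin copies share reads, so the split between them is uncertain. The other globin genes of the lists were not analysed here.

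Among the transcription factors known to govern globin choice, 1 of 7 was higher and 4 were lower. Bcl11a, the repressor of fetal globins, was higher in fetal libraries, at 214 to 283 CPM against 139 to 205 CPM (log2 difference 0.65, SE 0.14, adjusted p = 0.00288 in edgeR). Nfia (chr4:97772734-98118874, plus strand), a nuclear factor that favours erythroid maturation, stood at 1.81, 3.03 and 3.49 CPM in flox controls, 2.65 and 2.44 CPM in Vav1-Cre libraries and 29.7, 25.99 and 81.7 CPM in adults. It was 17.1 times lower, or 10.4 times without adult replicate 3 (adjusted p = 2.46e-05 in edgeR), with adult replicate 3 well above the other 2 adults. Nfix, of the same family, was at 54.8 to 76.6 CPM against 139.5 to 160.0 CPM (2.11 times lower, adjusted p = 3.72e-05 in edgeR). Myb and Nr2c2 were lower by smaller margins, with log2 differences of -0.41 and -0.52. Zbtb7a (log2 difference 0.07, adjusted p = 0.638) and Nr2c1 (0.07, adjusted p = 0.449) did not pass the edgeR test. In the batch B library alone Zbtb7a was called lower, at -0.30.

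Granule protein genes of neutrophil precursors were lower in fetal liver, 10 of 12 tested and none higher, with a median log2 difference of -2.54. The primary granule enzymes differed by moderate factors at very high levels. Mpo, myeloperoxidase, stood at 18569, 13070.1 and 13089 CPM in flox controls, 13062 and 9349.8 CPM in the Vav1-Cre libraries and 30235, 33756 and 25499 CPM in adults, 2.22 times lower (adjusted p = 0.000678 in edgeR). Elane, neutrophil elastase, was at 420.3 to 1427 CPM against 4967 to 6706 CPM, 6.82 times lower, and Ctsg, cathepsin G, at 470.5 to 896 CPM against 2276 to 2801 CPM. No fetal library reached an adult one for these 3 enzymes.

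Secondary granule genes, which mark later precursors, were lower by larger factors but spread widely among adults. Ngp lay at 5.71 to 89.5 CPM in fetal libraries and at 5242, 2323 and 575 CPM in adult replicates 1, 2 and 3, and Ltf, lactoferrin, at 2.44 to 34.05 and 1885, 631 and 98.6 CPM. Chil3 (chr3:106147554-106167564, minus strand), a chitinase-like secreted protein, had 2058, 1127 and 377 CPM in adults and 0 to 0.538 CPM in fetal libraries, 4539.6 times lower, or 2876 times without adult replicate 1 (adjusted p = 1.82e-06 in edgeR). Adult replicate 1 was highest and replicate 3 lowest for all 3 genes, a spread of several-fold within the adult arm that the fetal values still did not reach. Mmp8 and Retnlg did not pass the test (log2 differences 0.20 and -1.40). Padi4, which citrullinates histones in neutrophils, Lrg1 and Orm1, secreted proteins of neutrophils and liver, were lower as well, at 0.539 to 1.89, 0.0951 to 0.692 and 0 to 0.0615 CPM against 63.1 to 83.7, 52.4 to 67.4 and 2.57 to 18.9 CPM.

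Of 11 tested regulators and receptors of the myeloid lineage, 2 were higher and 4 lower. Gfi1, a repressor needed for neutrophils, was at 82.7 to 135 CPM against 262 to 301 CPM, and Csf3r, the G-CSF receptor, at 133 to 181 CPM against 272 to 317 CPM. Cebpa, the factor that commits granulocyte and monocyte progenitors, was lower by 1.54 times without overlap (adjusted p = 0.00198 in edgeR). Csf1r, the monocyte growth factor receptor, was 1.78 times higher, at 209.8 to 277 CPM against 73.1 to 164 CPM. Spi1 and Irf8 did not pass the test (log2 differences 0.25 and -0.29, adjusted p = 0.146 and 0.325 in edgeR).

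Genes of antigen presentation were lower in fetal liver in every tested member, 5 of 5 for class I processing and 4 of 4 for class II. Tap1 (chr17:34187553-34197225, plus strand), 1 chain of the peptide transporter that loads class I molecules, stood at 52.96, 37.5 and 38.2 CPM in flox controls, 38.4 and 43.9 CPM in Vav1-Cre libraries and 274, 276 and 286 CPM in adults. The 3 adult values were nearly equal and 6.603 times the fetal mean (adjusted p = 3.12e-07 in edgeR). Tap2, its partner, and Psmb8, an immunoproteasome subunit, were 4.21 and 3.21 times lower, and Psmb10 only 1.19 times. H2-Q4, a class I gene, was at 0.722 to 1.27 CPM against 129 to 158 CPM (150.1 times lower), but it belongs to a family of near-identical genes that differ between mouse strains, so its count is uncertain. The classical class I genes H2-K1, H2-D1 and B2m were not analysed here.

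Class II genes, H2-Aa and its invariant chain Cd74, lay at 0.815 to 3.08 and 3.03 to 8.63 CPM in fetal libraries against 5.94 to 32.4 and 9.803 to 57.4 CPM in adults. Adult replicate 1 was far above the other adults and flox control replicate 3 above the other fetal libraries for both. In the batch B library alone, 2 of the 4 class II genes were called lower, against 5 of 5 class I processing genes.

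Interferon-stimulated genes shared this direction, with 17 of 22 tested lower and none higher (median log2 difference -1.33). Gbp3 (chr3:142560026-142573209, plus strand), a guanylate-binding protein of cell-autonomous defence, stood at 14.6, 9.92 and 9.33 CPM in flox controls, 8.86 and 10.4 CPM in Vav1-Cre libraries and 108, 107 and 103 CPM in adults, a log2 difference of -3.32 (SE 0.15, adjusted p = 4.04e-07 in edgeR) with nearly equal values in the adult arm. The RNA sensors Ddx58, which encodes RIG-I, and Ifih1, which encodes MDA5, were 4.25 and 4.06 times lower. Of the factors that carry the interferon signal, Stat2 was 1.56 times and Irf9 2.46 times lower, both without overlap. Isg15 and Ifit1, which are strongly induced by interferon, were low in both arms, at 0.326 to 0.9995 and 0.313 to 0.861 CPM against 1.38 to 4.06 and 1.03 to 2.95 CPM.

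Mx1, whose promoter drives the Cre of the adult animals, did not pass the test (log2 difference 0.93, adjusted p = 0.0732 in edgeR) but was called higher in the batch B library alone (1.71, adjusted p = 0.0198 in edgeR), and Mx2, Ifit3, Rtp4 and Ifi27l2a did not either. Of 12 innate sensing genes, 7 were lower and 1 higher. Casp1, the inflammasome protease, was at 9.66 to 14.8 CPM against 45.2 to 55.6 CPM and Tlr4, the endotoxin receptor, at 10.2 to 13.2 CPM against 34.4 to 42.2 CPM, neither with overlap. Tlr9 was the higher gene (2.31 times).

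**Figure D4:**
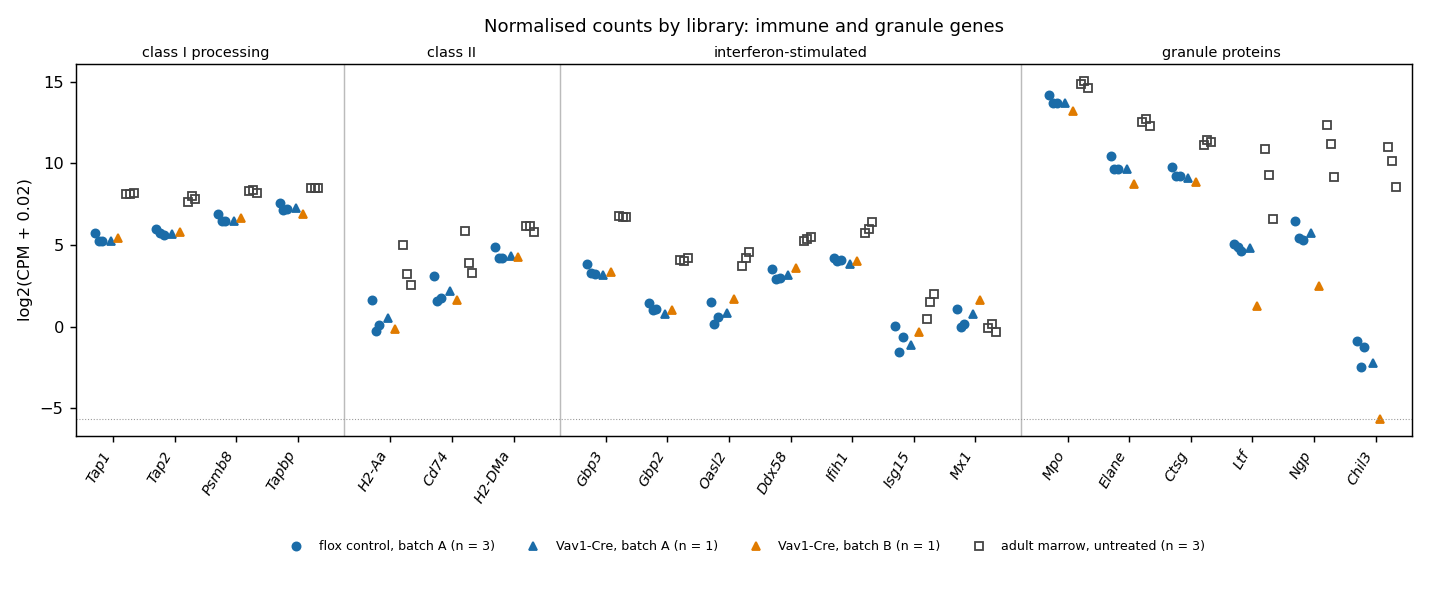
Each point is 1 library, placed by log2(CPM + 0.02), with fetal batch A in blue, fetal batch B in orange and adult marrow as open squares; the dotted line marks 0 counts. Tap1 lies at 37.5 to 53.0 CPM in fetal and 274 to 286 CPM in adult libraries, the adult points of Ltf and Ngp spread over more than 3 log2 units, and Mx1 overlaps.

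Promoters of the interferon-stimulated genes were searched because these members were lower together. The motif was the interferon-stimulated response element, a binding sequence of complexes that hold Stat2 and Irf9, written as GAAANNGAAA and, for the other strand, TTTCNNTTTC. The windows ran from 250 bases before to 50 bases after each RefSeq start on GRCm38.p6. For 5 called members, 40 bases of the gene's strand are printed with the first match of the window in capitals. The stretches of Gbp3 and Isg15 hold further overlapping matches, which are not marked:

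Gbp3 (chr3:142559984-142560023, plus strand): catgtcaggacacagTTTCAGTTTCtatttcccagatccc

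Gbp2 (chr3:142620589-142620628, plus strand): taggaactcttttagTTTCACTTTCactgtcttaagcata

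Isg15 (chr4:156200872-156200911, minus strand): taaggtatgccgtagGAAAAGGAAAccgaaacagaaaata

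Rsad2 (chr12:26456548-26456587, minus strand): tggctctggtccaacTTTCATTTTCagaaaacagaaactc

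Stat2 (chr10:128270261-128270300, plus strand): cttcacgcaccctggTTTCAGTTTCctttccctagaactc

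A match was found in 11 of the 15 tested list members with a promoter window. Ifit3 held a match too and was not called (log2 difference 0.47). A match was also in 3.44% of all 32851 windows and in 3.57% of the 8831 tested genes with a window. It was in 126 of 2519 genes called lower, 79 of 2876 called higher and 60 of the 801 lower by at least 2-fold. None of the 4 class I processing and 2 class II members with a window held a match, although these genes were lower as well. A match describes these letters and not a bound factor, and the share among lower genes includes the list members themselves. The list was made of genes known to respond to interferon, so the matches describe the list and their part in the lower levels was not tested.

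B-lineage genes were higher in fetal liver, 9 of 11 tested, with 1 lower (median log2 difference 2.91). Pax5, the factor that fixes B-cell identity, stood at 32.6, 11.01 and 13.6 CPM in flox controls, 17.4 and 25.5 CPM in Vav1-Cre libraries and 0.641, 0.428 and 0.0198 CPM in adults (55.2 times higher, or 89.4 times without adult replicate 1, adjusted p = 0.000112 in edgeR). Cd79a, a part of the B-cell receptor, and Il7r, the receptor for the lymphoid growth factor interleukin 7, were 25.7 and 21.6 times higher, and Il7r 39.4 times without adult replicate 1. Flox control replicate 3 and the batch B library were the highest for Pax5, Cd79a and Il7r, and both had the lowest Alb. Flox controls 4 and 5, with the most Alb, were the lowest for Pax5. The order for Pax5 thus ran nearly opposite to that for Alb, and the part of other cells in it was not tested. Dntt (chr19:41029275-41059525, plus strand), the enzyme that adds bases at antigen receptor joints in adult but not fetal lymphocytes, was the exception. It had no count in any fetal library and 5.85, 4.76 and 0.495 CPM in adults, a difference of at least 58.02-fold (adjusted p = 0.00159 in edgeR). Dntt passed the filter on low counts through the adult arm alone.

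Megakaryocyte genes gave 6 of 11 higher and 2 lower. Their summed CPM overlapped, at 481 to 572 in fetal and 438 to 552 in adult libraries. Without flox controls 4 and 5 the list gave 4 higher and 2 lower of 10. With the hepatocyte score in the model it gave 2 higher and 3 lower, and in the separate libraries described at the end 6 higher and 4 lower. Treml1, a receptor of platelet granules, was 8.17 times higher. Selp, the platelet and endothelial adhesion receptor P-selectin, was 26.7 times lower, at 1.26 to 3.48 CPM against 50.3 to 73.9 CPM. Pf4 (log2 difference 1.01) and Vwf (0.02) did not pass the test.

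Mast cell and basophil genes showed 1 of 10 higher and 2 lower. Fcer1a, a chain of the IgE receptor, was at 0.0931 to 0.317 CPM against 8.81 to 13.2 CPM (log2 difference -5.68, SE 0.38, adjusted p = 3.88e-06 in edgeR) and Mcpt8, a basophil protease, at 2.84 to 11.9 CPM against 22.5 to 47.2 CPM. Gata2, a factor of stem cells and mast cells, was 2.22 times higher, while Cpa3 and Hdc did not pass the test. Of 5 eosinophil genes, Il5ra and Prg3 were higher and none lower, although Prg3 was not called without adult replicate 1, 2 or 3 or without the batch A Vav1-Cre library. Of 8 T-cell and natural killer genes, 3 were higher and 3 lower, with Nkg7 of cytotoxic granules at 50.1 to 82.1 CPM against 394 to 465 CPM.

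Regulators of stem cells were split, with 4 of 13 higher and 7 lower. All 5 tested Hox genes were lower, with Hoxb4 at 1.45 to 2.29 CPM against 10.6 to 11.3 CPM (6.25 times lower, adjusted p = 3.73e-06 in edgeR) and Hoxa9 at 6.08 to 12.9 CPM against 20.1 to 28.8 CPM. The call of Hoxa10 was lost without adult replicate 1, without adult replicate 2, with the Vav1-Cre libraries only and with the hepatocyte score in the model. Mecom, a stem cell transcription factor, was 3.18 times lower. Runx1 and Meis1, which act beside the Hox proteins, were higher by log2 differences of 0.78 and 0.77, and Cd34 by 0.58. Cd34 was not called in batch A alone (log2 difference 0.48, adjusted p = 0.0549 in edgeR), nor Cd34 and Hlf without adult replicate 3, which left 2 higher genes.

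Cell cycle genes moved in both directions, with 11 of 23 higher and 4 lower and a median log2 difference of 0.17. The balance changed with the libraries, at 4 higher and 5 lower in the batch B library alone, 6 and 8 with the 5 batch B fetal libraries, and 6 and 10 in the separate set of libraries described at the end. Ccne1, cyclin E1, had the largest rise of the list, at 44.4 to 74.1 CPM against 18.98 to 27.1 CPM. The licensing helicase genes Mcm2, Mcm3, Mcm4 and Mcm5 were called higher by log2 differences between 0.19 and 0.40, and none of these 4 was called in the batch B library alone. Mcm4 was also not called without flox control 4, flox control 5, adult replicate 1 or adult replicate 2. Cdkn2c (chr4:109660876-109667189, minus strand), the inhibitor p18 of the kinases Cdk4 and Cdk6, stood at 7.69, 7.12 and 7.299 CPM in flox controls, 6.84 and 3.84 CPM in Vav1-Cre libraries and 80.4, 68.1 and 47.5 CPM in adults, 9.96 times lower (adjusted p = 4.15e-06 in edgeR). Cdk6 was 2.198 times lower, at 906 to 1053 CPM against 2142 to 2294 CPM, and Cdkn1b, the inhibitor p27, 1.77 times. The proliferation marker Mki67 did not pass the test (log2 difference -0.23, adjusted p = 0.118 in edgeR).

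Among metabolic genes, 8 of 12 of cholesterol synthesis were higher and 3 lower, and 4 of 12 of glycolysis higher and 2 lower. Over all genes 30.3% were higher and 27.1% lower. Glycolysis genes gave 4 higher and 7 lower with the 5 batch B fetal libraries, and 4 and 5 in the separate libraries described at the end. No cholesterol gene was called at 2-fold or more, and none was called with the hepatocyte score in the model. Slc2a1, the glucose transporter Glut1, was 4.65 times higher, at 127 to 138 CPM in batch A, 78.8 CPM in batch B and 23.5 to 28.3 CPM in adults. Sqle, squalene epoxidase of cholesterol synthesis, was higher by a log2 difference of 0.74 (adjusted p = 0.00278 in edgeR). Of 12 homing and adhesion genes, 4 were higher and 6 lower (median log2 difference -0.14). Among the lower ones was Cxcr4, the receptor that holds cells in marrow, at 122 to 192 CPM against 225 to 419.9 CPM. Cxcr4 was not called with the hepatocyte score in the model. Cxcr2 and Ccr1, chemokine receptors of neutrophils and monocytes, were 2.57 and 2.71 times higher.

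Immediate-early genes, which respond within minutes to handling and to growth signals, were lower in 7 of 10 and higher in none. Fos stood at 144, 34.04 and 39.7 CPM in flox controls, 106 and 55.5 CPM in Vav1-Cre libraries and 336, 402 and 432 CPM in adults. Flox control replicate 3 and the batch A Vav1-Cre library were well above the other fetal libraries. In the batch B library alone 1 of the 10 was called.

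Outside these lists, the rule for named genes picked the largest changes that held in both batches and without overlap. Higher genes with at least 1 CPM in the lower arm included Ptk7, a receptor-like kinase of Wnt and planar polarity signalling, at 123 to 168 CPM against 2.53 to 5.498 CPM. Pcbp4, an RNA-binding protein, was 27.9 times higher, Perp, a cell adhesion protein under p53 control, 18.4 times, Rcor2, a corepressor partner, 11.5 times and Plag1, a zinc-finger activator of growth genes, 11.4 times. Hif3a, of the hypoxia response, was 10.9 times higher, at 75.9 to 141 CPM against 4.28, 8.13 and 18.8 CPM (18.2 times without adult replicate 3), and Sdc3, a cell surface proteoglycan, 11.7 times, with the batch B library at 9.26 CPM against 24.7 to 28.7 CPM in batch A.

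The largest falls of this kind were in Cpne2 (chr8:94532990-94570531, plus strand), a calcium-dependent membrane-binding protein, at 2.58, 1.77 and 1.99 CPM in flox controls, 1.09 and 1.68 CPM in Vav1-Cre libraries and 192, 187 and 204 CPM in adults (106 times lower, adjusted p = 4.26e-08 in edgeR). Alcam, an adhesion molecule of the immunoglobulin family, was 34.5 times lower, Tanc1, a scaffold protein, 35.9 times, Adgrg7, an adhesion receptor, 29.5 times and Dnajc6, the clathrin-uncoating cochaperone auxilin, 27.05 times. Ifi209, an interferon-inducible gene of a family of near copies, was 25.5 times lower. At lower levels Mlph, Sdsl, Cnmd and the progesterone receptor Pgr were at 0 to 0.0466, 0.0634 to 0.234, 0 to 0.0317 and 0 to 0.0317 CPM against 0.812 to 2.56, 13.97 to 27.2, 0.673 to 2.32 and 0.277 to 2.44 CPM. Mlph, Cnmd and Pgr passed the filter on low counts through the adult arm alone. Esr1, the estrogen receptor alpha, was chosen after its values were seen and stood at 1.03, 1.02 and 0.6097 CPM in flox controls, 0.916 and 1.14 CPM in Vav1-Cre libraries and 66.3, 68.9 and 41.3 CPM in adults.

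The fetal batches were then set against the adult arm separately, which shares the 3 adult libraries between both fits. The 4 batch A libraries gave 8029 calls among 12428 genes (64.6%, 4054 higher and 3975 lower), and the single batch B library, with the spread taken from the other libraries, gave 4407 among 12626 (34.9%, 17.9% higher and 17.0% lower). Igf2bp3 differed by 11.03 in batch A and 11.03 in batch B on the log2 scale, Igf2bp2 by 4.20 and 4.23, and Tap1 by -2.75 and -2.67. Other genes differed more between the batches: Slc4a1 by 9.92 and 6.99, C1qb by 5.11 and 2.41, Sptb by 3.63 and 1.30, and Ltf by -4.92 and -8.48. By lists, batch A gave 17 interferon-stimulated genes lower and 0 higher, and 10 granule genes lower and 0 higher. B-lineage genes gave 1 lower and 9 higher there, and stem cell regulators 7 lower and 3 higher. The median log2 differences of these 4 lists were -1.43, -2.44, 2.95 and -0.35 in batch A. In the batch B library they were -1.37, -4.47, 3.01 and -0.32. Stromal genes gave 4 higher in batch A and none in batch B. Several genes described above were not called in the batch B library alone, among them Gata1 (adjusted p = 0.181 in edgeR) and, by their log2 differences, Sptb (1.30), Isg15 (-1.79), Ifit1 (-1.55), Mecom (-1.53), Cd74 (-3.17), Stab2 (3.38) and Dntt. A single library has no spread of its own, so the batches were not tested against each other.

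The same stage contrast was read in libraries that share none with it. The other fetal libraries were 3 with 1 deleted allele, Vav1-Cre/U2af1(wt/flox), in batch A and 4 with a mutant allele, Vav1-Cre/U2af1(wt/S34F), in batch B. The other 14 adult libraries were from mice with Mx1-Cre, rTA and tgU2AF1(WT) whose own gene was U2af1(flox/S34F), given pIpC and doxycycline chow at 10000, 2500 or 1250 ppm. Genotype and treatment differ along with stage there, so it is the same measure under other conditions. In it 9016 of 14361 genes (62.8%) were called, 4515 (31.4%) higher and 4501 (31.3%) lower. Of the 2883 genes called by 2-fold or more in the controls and tested there, 2454 (85.1%) were called in the same direction, beside shares of 31.4% and 31.3% for each direction over all genes. Conversely, 71.4% of the calls there that were tested in the controls were called the same way. Of all 7154 genes called in the controls and tested there, 53 were called in the opposite direction.

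**Figure D5:**
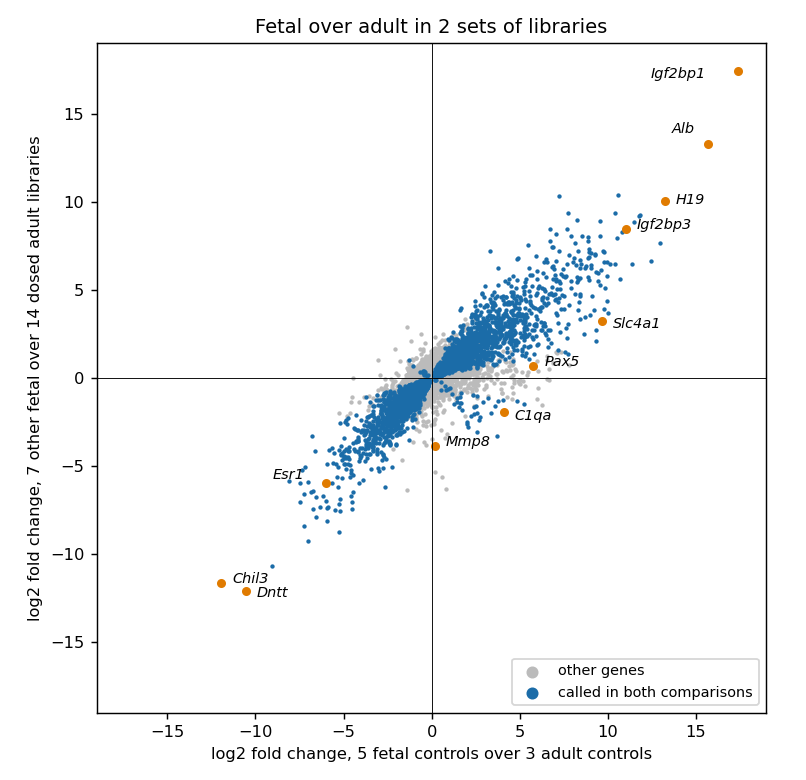
Each point is 1 of 12531 genes, placed by its log2 fold change of 5 fetal over 3 adult controls (horizontal axis) and of 7 other fetal over 14 dosed adult libraries (vertical axis), which share no library; blue points were called in both and orange points are named genes. Most blue points lie in the lower left and upper right, Igf2bp1 and Alb at the far right and Chil3 and Dntt at the far left lie far out on both axes, and Pax5, C1qa and Mmp8 lie off the diagonal; fitted values of genes with no adult count depend on the fit.

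The Lin28b-let-7 genes were called higher there in 6 of 6, class I processing genes lower in 5 of 5, granule genes lower in 12 of 12 and interferon-stimulated genes lower in 17 with 2 higher. Igf2bp1 lay at 348 to 515 CPM in the 7 fetal libraries and at 0 in all 14 adults, and Dntt at 0 to 0.0321 CPM against 5.46 to 43.7 CPM. Nfia lay at 1.64 to 2.48 CPM against 17.7 to 90.4 CPM, and Esr1 at 0.566 to 1.19 CPM against 41.6 to 73.2 CPM, again with no overlap.

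The lineage lists gave other counts there. B-lineage genes gave 3 higher and 2 lower there, with Pax5 at a log2 difference of 0.69 (adjusted p = 0.0761 in edgeR). The dosed adults had 1.41 to 16.9 CPM of Pax5, all above the 0.0198 to 0.641 CPM of the untreated adults. Macrophage genes gave 2 higher and 8 lower, with C1qa at -1.95 there and 4.11 in the controls. Erythroid genes gave 10 higher and 5 lower, and Slc4a1 ran from 0.0214 to 165.5 CPM over the dosed adults. Imprinted genes gave 10 higher and 2 lower, the lower ones being Igf2r (-1.40) and Phlda2 (-2.20). Cdkn1c differed by -0.08 there against 3.73 in the controls, and Sdc3 by -0.31 against 3.55. Whether the contrasts differ from each other was not tested.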

How the data were processed

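RNA was sequenced on a NovaSeq instrument with 2 reads of 150 bases per fragment and aligned with HISAT2 2.1.0, per the labels' protocols and design text. The values are counts of reads per Ensembl gene that the authors deposited as 1 table of the series, with 27728 genes. The counting tool, its annotation release and its use of strand are not given in the sources used here, so overlapping and antisense genes are uncertain. Symbols and positions came from GENCODE M21 on GRCm38 for 27668 genes, and sequences from RefSeq tables on GRCm38.p6. The totals per library, 28886512 to 66089097 counts, set the counting error, which counting intervals and floors alone cover.

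Groups were taken from the labels. The 5 fetal and 3 adult libraries were fitted with edgeR 4.0.16 (R 4.3.3): its filter on low counts, trimmed mean of M values scaling, and the quasi-likelihood test with Benjamini-Hochberg adjustment over all tested genes and a threshold of 0.05. Standard errors (SE) are of the log2 fold change. Fold ratios are of mean CPM. A gene at 0 in every library of an arm was given a floor of 3 counts per library. The code was tested on simulated counts with known changes. Alternatives used DESeq2 1.42.0, other scalings, filters, covariates and subsets of libraries.

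Named genes were the 10 largest rises and falls that were called, did not overlap between arms, held at 2-fold or more in both fetal batches and averaged 50 or more counts in the higher arm. The same was done for genes at 20 CPM or more in the higher arm and 1 CPM or more in the lower, outside the lists of liver cells and globins. From each of 30 lists the rule took the first 3 genes, the 2 largest called changes and any exception. Some genes that the rule names are not reported here. The members and lists were chosen with earlier results of these data known.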

Additional observations from a re-analysis of the deposited data

Results flagged for a closer look

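Of 163 measures checked over the 5 fetal libraries, 29 had a library whose gap to the nearest of the others exceeded 0.71 of the group's range, the critical value for 5 samples. A normally distributed measure passes it by chance about 1 time in 20. These measures share libraries and some share genes, so their flags are not independent and their number cannot be set against that rate. No adult measure was checked, since that arm has 3 libraries.

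Flox control replicate 3 stood above the other 4 fetal libraries in myeloid, class II and cytotoxic genes. It held Irf8 at 229.9 CPM against 161 to 171 in the others, Gfi1 at 135 against 82.7 to 96.1, and Prg2, the eosinophil major basic protein, at 1018 against 298 to 489. It also led for H2-Aa at 3.08 CPM, Cd74 at 8.63, Tlr2 at 22.1, Cxcr4 at 192, Itgam at 31.3 and Igf2bp3 at 272, and it had Orm1 at 0.0615 and Ncr1 at 0.0769 CPM where the others had 0. The Orm1 and Ncr1 values lie near the floor of 3 counts per library, and this library was the deepest, at 66089097 counts. Its summed CPM was highest for the myeloid factors (2039), the eosinophil list (1170), class I processing (526), class II (42.4) and T and natural killer cells (90.6).

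The batch B Vav1-Cre library stood apart from the other 4 in macrophage genes and several others. It held Cd5l at 1.08 CPM against 9.41 to 12.0, C1qa at 1.05 against 5.38 to 7.13 and C1qb at 1.65 against 9.84 to 11.7. Mcm2 (508), Mcm3 (590.1), Slc2a1 (78.8), Nfix (54.8), Sdc3 (9.26) and Cdkn2c (3.84) were also low there, and Plag1 was high at 40.9 CPM against 25.3 to 29.7. Its summed CPM was lowest for the macrophage list (85.2) and the Lin28b-let-7 list (1948), although all 6 tested members of the latter were called in it. Small nucleolar RNA took 0.00321% of its counts against 0.000318% to 0.000475% in the batch A libraries. Every one of these measures separates 1 library from 4, and the cause was not tested.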

How the results depend on the processing

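The count of genes called, 7236, stayed within 1.5 times under DESeq2 (7523), median-ratio factors, no filter, a filter of a mean of 50 counts, GC correction, a Y-linked covariate, the 32-library fit, batch A (8029), flox controls (7231), the 5 batch B fetal libraries (7878) and without the 2 libraries of highest hepatocyte score (5324). It was 2965 with 2-fold required, 4407 with the batch B library only, 4495 with the Vav1-Cre libraries only and 1626 with the hepatocyte covariate. Leaving out each library in turn gave 6073 to 8029. In the other libraries 9016 became 3365 with 2-fold required. Directions that reversed were Zbtb7a (-0.30) and Col1a1 (-1.28) in the batch B library, Zbtb7a (-0.29), Pf4 (-1.48), Prg3 (-0.33), Mcm4 (-0.24) and Hk2 (-0.15) in the 5 batch B fetal libraries, and Epor (-0.26), Alad (-0.37), Cpox (-0.74), Vwf (-2.01), Pf4 (-4.04), Ppbp (-1.29), Mcm2 (-0.0047), Mcm4 (-0.025), Egr1 (0.14) and Col1a1 (-2.28) under the hepatocyte covariate, whose scores do not overlap between arms. Otherwise the cause was not tested. Of 135 named genes, 135 kept direction and side of the threshold under DESeq2, 97 in the batch B library and 66 under the hepatocyte covariate.

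Replicate numbers were shared by some libraries of different groups, but the deviations of same-numbered libraries correlated at 0.2, -0.194, -0.114 and -0.0822, so the numbers were not taken as pairs. With the replicate number as a block 2976 genes were called, and 3100 with the block and the GC correction, where Vwf turned to -0.61.

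The shallowest library held 28886512 counts, and genes that read 0 in an arm, such as Dntt in fetal and Igf2bp1 and Alb in adult libraries, were not detectable at these depths, with a limit of 3 counts per library.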

Other observations

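Small nucleolar RNAs, which guide chemical changes of ribosomal RNA, took a different share of counts in the arms and in the fetal batches. Their share of counts was 0.000318% to 0.000475% in the 4 batch A fetal libraries, 0.00321% in the batch B library and 0.00485% to 0.00661% in adults. The share thus differed between fetal batches as well as between arms. The 30 that passed the filter on low counts did so mainly through the adult libraries, so no count of them is given as a difference between arms.

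A non-coding gene annotated on the Y chromosome, Gm29650, had 0 counts in flox control 5 and adult replicate 3 and 18 to 36 counts in the other 6 libraries. Adding presence of these reads as a covariate gave 7280 called genes.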
